A study of Homo sapiens with 2 samples.

Results

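miR-26a-5p, miR-26b-5p and miR-101-3p, 3 mature microRNAs (miRNAs) known as brakes on liver tumour growth, were examined among the 1001 probes of a single-colour miRNA array. They were chosen by identity, as the probes whose miRBase accessions are MIMAT0000082, MIMAT0000083 and MIMAT0000099. No cutoff on their values was used, though earlier results of these data were known. The arrays compared Huh7 cells, an established human hepatocellular carcinoma line, labelled as control with Huh7 cells exposed to 10 µM Y27632, a small-molecule kinase inhibitor, for 12 hours. Both groups were cultured in Dulbecco's medium supplemented with serum. The control's title gives neither a vehicle nor a time of harvest, and the treatment protocol is given under both samples, so the groups follow the titles. Each condition had 1 array. No value below therefore has a replicate error, no test was possible, and every difference describes these 2 arrays.

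Of the 3 miRNAs, the 2 members of the miR-26 family had a value on both arrays and kept nearly the same intensity after Y27632. miR-26a-5p was 0.929 times its control intensity and miR-26b-5p was 0.990 times. miR-101-3p had no value on either array.

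A mature miRNA guides an Argonaute protein to messenger RNAs that pair with its seed, the bases at positions 2 to 8 from the 5′ end, and those messages are then translated less or degraded. The miR-26 family is abundant in normal liver and is known to be lowered in many hepatocellular carcinomas. Known targets of miR-26a include the histone methyltransferase EZH2 and the G1 cyclins D2 and E2, and returning miR-26a to mouse liver tumours is known to slow their growth. miR-101 is also known to repress EZH2, and its loss has been described in several carcinomas. The control here is itself a carcinoma line, and without a sample of normal liver these arrays cannot place either family against that tissue.

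The mature sequences are shown because they set what each family can pair with and how alike the miR-26 probes' targets are. Sequences are from RefSeq (GRCh38.p14), written 5′ to 3′, and capitals mark the seed.
miR-26a-5p: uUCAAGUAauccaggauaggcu
miR-26b-5p: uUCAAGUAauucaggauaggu
miR-101-3p: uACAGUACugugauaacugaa
miR-26a-5p and miR-26b-5p share the seed UCAAGUA, so a perfect seed match in a message reads TACTTGA for both. Seed matches here are written in DNA letters, with T in place of U. Counted from 1 at the 5′ end of miR-26a-5p, they differ by the substitutions C11U and C21U over the 21 bases compared, and miR-26a-5p is 1 base longer, at 22 bases. The first 10 bases are the same. The seed of miR-101-3p, ACAGUAC, is another one, and its match reads GTACTGT. GC content was 40.9% in miR-26a-5p and 33.3% in both miR-26b-5p and miR-101-3p.

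Few other human miRNAs carry these seeds. Of 2370 mature miRNA names in the RefSeq table, 4 had the miR-26 seed (0.169%) and 1 had the full miR-101 seed, which was miR-101-3p itself. The other miR-26 seed carriers were miR-1297 and miR-4465. miR-144-3p matched miR-101-3p at positions 2 to 7 and parted from it at position 8. In the sequences of these relatives capitals again mark positions 2 to 8.
miR-1297: uUCAAGUAauucaggug
miR-4465: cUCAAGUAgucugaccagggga
miR-144-3p: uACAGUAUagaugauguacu
miR-1297 shares its first 15 bases with miR-26b-5p, which is more than the 10 that miR-26a-5p and miR-26b-5p share. The table of intensities lists accessions without names, so the probes of these relatives could not be picked out and their levels are not given.

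Each of the families is made from more than 1 gene. miR-26a-5p comes from MIR26A1 (chr3:37969404-37969480, plus strand) and MIR26A2 (chr12:57824609-57824692, minus strand), and miR-26b-5p comes from MIR26B (chr2:218402646-218402722, plus strand), all in GRCh38.p14. These genes lie within the annotated spans of CTDSPL, CTDSP2 and CTDSP1 respectively, related genes for small phosphatases that act on the C-terminal domain of RNA polymerase II, and are known to sit in their introns. The hairpins are shown because the genes of miR-26a-5p differ in hairpin but give the same miR-26a-5p. Capitals mark the mature miRNA.
MIR26A1: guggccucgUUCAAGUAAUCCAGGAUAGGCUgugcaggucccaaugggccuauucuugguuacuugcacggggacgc
MIR26A2: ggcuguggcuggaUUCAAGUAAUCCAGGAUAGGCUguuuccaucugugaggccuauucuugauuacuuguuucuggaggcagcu
MIR26B: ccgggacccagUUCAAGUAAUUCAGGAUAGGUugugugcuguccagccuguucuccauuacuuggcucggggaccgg
In all 3 hairpins the miR-26 sequence is on the 5′ arm. Because MIR26A1 and MIR26A2 give an identical miR-26a-5p sequence, 1 probe reads that product of both. The share of each gene in the intensity cannot be told apart.

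miR-101-3p comes from the 3′ arm of MIR101-1 (chr1:65058434-65058508, minus strand) and MIR101-2 (chr9:4850297-4850375, plus strand). MIR101-2 lies within the annotated span of RCL1, a gene for ribosomal RNA processing. The end of its hairpin also overlaps the annotated span of LOC124902113, a long noncoding RNA gene. MIR101-1 lies within the widest annotated span of JAK1, a cytokine receptor kinase.
MIR101-1: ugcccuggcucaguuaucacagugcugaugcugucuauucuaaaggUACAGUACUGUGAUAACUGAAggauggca
MIR101-2: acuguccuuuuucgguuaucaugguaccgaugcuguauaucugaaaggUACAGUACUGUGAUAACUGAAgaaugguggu
As with miR-26a-5p, both genes give the same miR-101-3p sequence and a probe for it would read both.

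miR-26a-5p had an intensity of 350.1 in control cells and of 325.3 in Y27632-treated cells. These are intensities as deposited, taken as linear and not normalized again. The control value ranked 28 among the 619 probes listed on that array, with 95.5% of listed probes dimmer, and the Y27632 value ranked 29 among 614, with 95.3% dimmer. The probe thus stood well above the medians of listed probes, which were 6.0 and 6.1. Its part of all signal added up over an array was 0.294% in control cells and 0.260% in treated cells.

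miR-26b-5p had an intensity of 73.4 in control cells and of 72.7 in treated cells. Its ranks were 77 and 78, with 87.6% and 87.3% of the listed probes dimmer, and its shares of all signal were 0.0616% and 0.0582%. The summed signal itself was 119093 in control cells and 124946 in treated cells, so both shares fell by more than the intensities did. Both miR-26 probes were in the brighter part of each array and each moved by 1 place in rank. Probes differ in how brightly they bind and label, so the intensities do not say which of the miR-26 forms was more abundant.

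miR-101-3p was listed on neither array, as were 287 of the 1001 probes (28.7%). The sources used here do not say whether an empty cell stands for low signal or for a rejected spot. The lowest intensities listed were 2.3 for control and 2.7 for Y27632, but no upper bound for miR-101-3p is drawn from them. Its level in Huh7 and its ratio are therefore not given, and the empty cells do not show that the miRNA was absent. None of the 5 probes with several accessions held any of the 3 miRNAs.

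**Figure D1:**
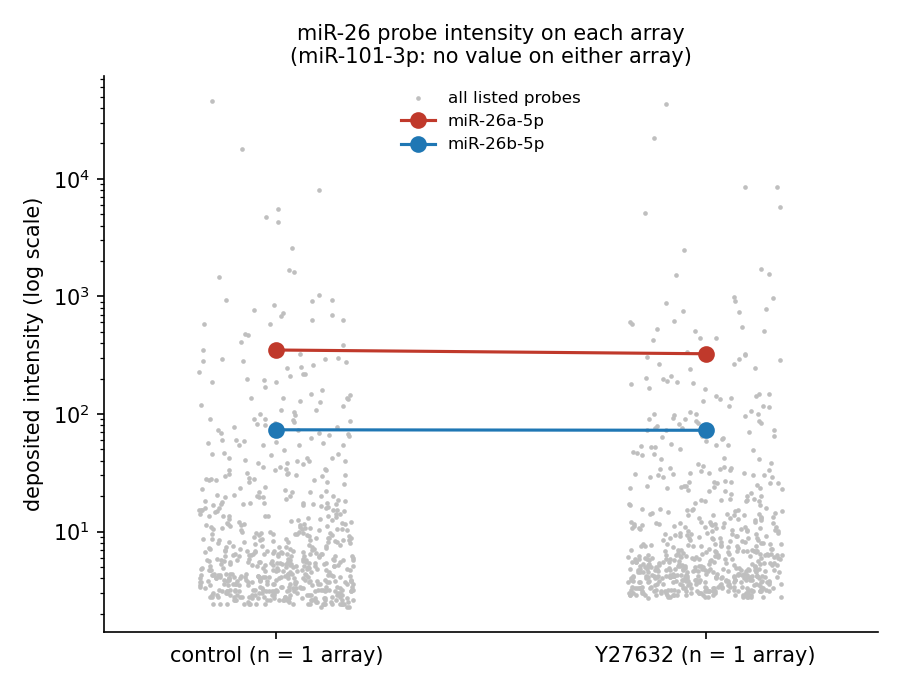
Deposited intensity on a log scale (vertical axis) for the control and the Y27632 array (horizontal axis, 1 array each). Grey points are all listed probes, coloured points joined by lines are miR-26a-5p (350.1 and 325.3) and miR-26b-5p (73.4 and 72.7), and both lines are nearly flat; miR-101-3p has no point because neither array lists a value.

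Treated and control cells were compared to ask whether these miRNAs differ after 12 hours in Y27632. The log2 ratio of Y27632 over control was −0.11 for miR-26a-5p, a change in intensity of −7.08%. It was −0.01 for miR-26b-5p, a change in intensity of −0.954%. Neither reached a 2-fold or a 1.5-fold difference. Among the 260 probes of the brighter 50% by mean log2 intensity, which include both, the background of probes at least 2-fold lower was 0.385% (1 probe) and of probes at least 2-fold higher 0% (0 probes). At 1.5-fold these were 2.31% (6 probes) and 1.15% (3 probes), so miR-26 probes within 1.5-fold are like most of these 260 brighter probes. The deposited values carry 1 decimal, so the log2 ratio of miR-26b-5p could lie anywhere from −0.0158 to −0.0118 through rounding alone.

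**Figure D2:**
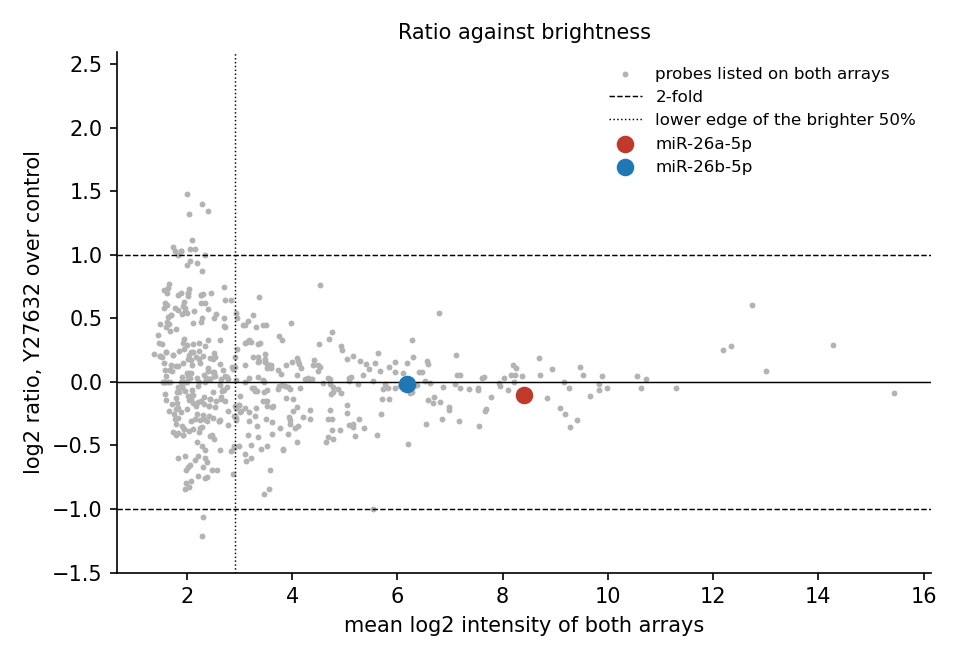
Log2 ratio of Y27632 over control (vertical axis) against mean log2 intensity of both arrays (horizontal axis) for the 519 probes listed on both. miR-26a-5p (−0.11) and miR-26b-5p (−0.01) lie near 0, inside the dashed 2-fold lines and to the right of the dotted edge of the brighter 50%.

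Probes of like brightness gave a scale for these ratios, since no replicate did. miR-26a-5p was set beside the 14 further probes whose control intensity differed from its own by at most 1.5-fold (233.4 to 525.15). Their log2 ratios ran from −0.13 to 0.19 with a median of 0.05, and 9 of them were higher after Y27632 and 5 lower. The ratio of miR-26a-5p was below those of 13 of the 14, near the lower end of a narrow range. For miR-26b-5p, 35 further probes met the same limit (48.9 to 110.1). Their log2 ratios ran from −1.002 to 0.55 with a median of −0.03, and miR-26b-5p stood in the middle, above 19 and below 16. All the probes in either range that had a control value also had a value on the Y27632 array.

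A wider comparison used the 100 probes nearest to each in mean log2 intensity. miR-26a-5p lay at −0.539 robust SDs from the median of those probes (a robust SD is the scaled median absolute deviation of their log2 ratios), and 47 of the 100 had a log2 ratio of larger size. Because few probes are as bright as miR-26a-5p, these 100 reached from 37.2 to 2559.3 in control intensity. Their robust SD was 0.14, against an SD of 0.08 among the 14 probes of like brightness, so this comparison used a wider scale. miR-26b-5p lay 0.127 robust SDs above the median of its 100, of which 94 had a log2 ratio of larger size. These spreads mix technical noise and any effect of Y27632.

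**Figure D3:**
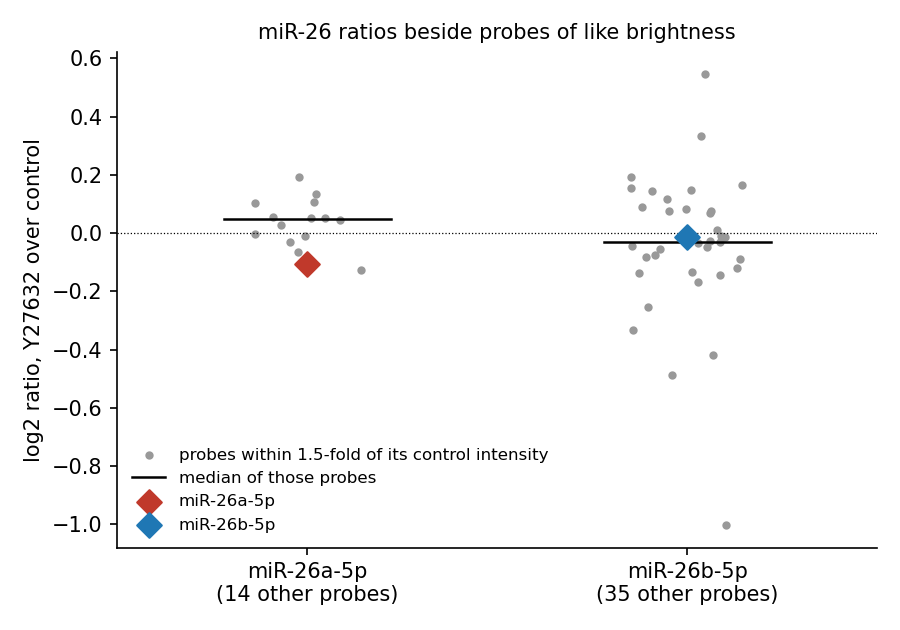
Log2 ratio of Y27632 over control (vertical axis) for miR-26a-5p and miR-26b-5p (diamonds) beside the other probes within 1.5-fold of each one's control intensity (grey points, 14 and 35 probes; black bar, their median). miR-26a-5p sits near the bottom of its narrow group and miR-26b-5p close to the median of its wider one.

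The 2 miR-26 probes, whose targets share a seed and most of their sequence, differed from each other by 0.09 in log2 ratio, miR-26a-5p being the lower. Whether either probe also bound the other form was not tested, so the 2 ratios may not be separate readings. Among the probes within 1.5-fold in control intensity, the SD of log2 ratios was 0.08 for miR-26a-5p and 0.26 for miR-26b-5p. The latter SD takes in a probe at −1.002, far outside the quartiles of −0.13 and 0.08. Among the 100 probes nearest in brightness, a wider range, the robust SD was 0.14 for miR-26a-5p and 0.21 for miR-26b-5p. These SDs describe single ratios, whereas the gap is a difference between 2 ratios and carries the scatter of both. No SD of such differences was computed, so the gap is not read as a difference between the 2 miRNAs. The direction for miR-26b-5p was not stable: its log2 ratio was 0.03 after a lowess correction and 0.01 after centring on the brightest 25% of probes, against −0.05 after quantile normalization. miR-26a-5p stayed below 0 in these settings, between −0.08 and −0.07.

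The probes most like each miR-26 probe over both arrays were found by the smallest distance in log2 intensity. For miR-26a-5p the nearest probe read 325.2 in the control and 335.7 after Y27632. The next read 296.9 and 307.6, and the third read 293.3 and 316.2, so all 3 were higher after Y27632 while miR-26a-5p was lower. All 3 are also among the 14 probes of like brightness above, so this is not a separate observation. For miR-26b-5p the nearest probes read 77.9 and 73.2, then 77.9 and 73.6, and the third read 68.9 and 76.4. With 2 arrays this likeness is mostly likeness in brightness, and these probes are not named because the table does not pair accessions with names.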

How the data were processed

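Total RNA from 1 control and 1 Y27632 sample of Huh7 cells was labelled with Hy5 using an Exiqon miRCURY kit, per the labels' protocols. The deposited values are array intensities, judged linear from their range, with empty cells. How the authors corrected background, normalized or set a detection limit, and with what software, is not given in the sources used here. Scanner files were not used here, so background and saturation were not examined, and precision is limited by the number of arrays. The log2 ratio of Y27632 over control was computed from the deposited intensities for the 519 probes listed on both arrays, with no pseudocount; the log2 values are thus computed here from the deposited intensities.

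The miRNAs, lists and limits (2-fold, brighter 50%, 100 nearest probes, 1.5-fold brightness ranges) were chosen with earlier results of these data known. Probes to be named were the 3 miRNAs, their opposite strands, seed relatives, liver cancer miRNAs and the 3 most alike probes. Only the 3 miRNAs could be named, because their accessions were given with names. For the same reason the lists of opposite strands, seed relatives, miRNAs lowered or raised in liver cancer, and cell type markers were not evaluated, and the label Huh7 was not checked against hepatocyte markers. Functions were tested on simulated data. Alternatives were median centring, centring on the brightest 25%, quantile normalization, lowess (fraction 0.4), a pseudocount of 3.0, no dim-probe filter, the brightest 25% and a 1.5-fold limit. Python 3.11.15, numpy 2.4.6, pandas 2.3.3, statsmodels 0.14.6 and matplotlib 3.10.9 were used.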

Additional observations from a re-analysis of the deposited data

How the results depend on the processing

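The log2 ratio of miR-26a-5p was below 0 under all 5 alternatives: −0.106 after median centring, −0.105 with a pseudocount, −0.0776 after centring on the brightest 25%, −0.0759 after quantile normalization and −0.0726 after lowess. That of miR-26b-5p was below 0 under 3 of 5, with −0.0138 as deposited and after median centring, −0.0133 with a pseudocount and −0.0454 after quantile normalization. It was above 0 after centring on the brightest 25% (0.0146) and after lowess (0.0293). The cause was not tested. None of these values reached 1.5-fold. Median centring moved nothing, because the median log2 ratio was already 0.

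Among the brighter 50%, 1 probe was at least 2-fold lower and 0 higher, with the same counts in the brightest 25% and after median centring. Quantile normalization, lowess and the pseudocount each left 0 lower and 0 higher. Without a filter on dim probes 3 were lower and 13 higher, and at a 1.5-fold limit 6 were lower and 3 higher. Lists of miRNAs were not examined under any setting, since only the 3 miRNAs could be named. No array could be left out, and with 1 array per condition there was nothing to pair. Signal over background could not be examined.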
